A study of Mus musculus with 8 samples.

Results

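Aminoacyl-tRNA synthetases are the enzymes that join each amino acid to its transfer RNA, the step that sets the meaning of the genetic code. Cells keep a cytosolic set for most translation and a mitochondrial set, encoded in the nucleus and imported, for translation of the few proteins encoded by mitochondrial DNA. A single gene serves both compartments for glycine (Gars) and lysine (Kars), Eprs carries the glutamate and the proline enzyme in 1 protein, and several cytosolic enzymes sit with the scaffold proteins encoded by Aimp1 and Aimp2 in a multisynthetase complex. In macrophages, as in other cells, the cytosolic genes are known as targets of the amino acid response, in which the kinase GCN2 senses uncharged transfer RNA and the transcription factor ATF4 raises synthetase and amino acid genes.

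The members were taken by symbol alone: every gene whose symbol has the usual form for a cytosolic or mitochondrial synthetase, and the 2 scaffold genes. Tarsl2, a synthetase-like gene with another form of symbol, was left out and counted with the partner and editing genes. This gave 39 of the 15853 genes in the authors' deposited table. The cytosolic set held 22 genes, the scaffolds included, and the mitochondrial set 17, which are those with the suffix 2. All 39 passed the authors' filter on low values, each matched 1 gene of GENCODE M21, and Gars and Kars were counted as cytosolic.

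The cells were mouse bone marrow macrophages, differentiated for 7 days in L929-conditioned medium and then exposed over 24 h to insulin at 10 nM, glucose at 25 mM and palmitate (C16:0) at 250 uM. Both groups were homozygous for loxP-flanked Mirc11 and Mirc22 (Mirc11fl/fl Mirc22fl/fl), the clusters of the miR-23, miR-24 and miR-27 families. Their deletion was not measured in these polyadenylated libraries. The 4 control libraries were Lyz2+/+ and the 4 knockout libraries were Lyz2Cre/Cre, with Cre placed in both copies of a gene active in myeloid cells. The groups thus differ in Cre and in Lyz2 as well as in the clusters, and these cannot be told apart.

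Values of single libraries could not be tied to samples by name and were not used, so the depth of each library is unknown here and each gene is described by the authors' mean, fold change and standard error (SE) over all 8 libraries. Whether the 4 libraries of a genotype stand for 4 mice is not in the labels; p-values therefore cover the spread among these libraries, part of which may be technical. Directions rest on Lyz2, which the authors' deposited table lists at -9.10 (SE 0.42) on the log2 scale; it was read as lower in the knockout because both of its copies carry Cre. All 10 macrophage markers were measured, and 5 were called lower (Lyz2, Cd68, Csf1r, Spi1 and Fcgr1) and 1 higher (Adgre1). Among all genes tested 11.7% were called lower and 11.3% higher. The call of Lyz2 was fixed in advance, as Lyz2 carries Cre and set the direction, so it says nothing about the cells. Csf1r, the receptor for the growth factor that sustains macrophages, was at -0.33 (SE 0.09) and Adgre1, a macrophage surface receptor gene, at 0.25 (SE 0.07) in the authors' deposited table. Of markers of other blood cells, 4 of 6 B and T cell markers and 4 of 7 neutrophil markers were not analysed here. All 14 stromal markers measured were above 0, and 13 were called higher in the knockout, against 11.3% of all genes tested. The summed mean of the 14 was 2005 normalized counts in control and 7366 in knockout. In bulk libraries, fewer cells of a type and less RNA per cell cannot be told apart, and the part of these marker differences in the results below was not tested.

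Most synthetase genes lay close to 0 in the comparison of knockout with control, and 6 of 39 were called at an adjusted p under 0.05. Those higher in the knockout included the mitochondrial genes Wars2 and Rars2 and the cytosolic gene Rars, and the cytosolic genes Mars1 and Gars were lower. The share of members called, 15.4%, compares with 23.0% of the 14619 genes tested. By direction, 4 members were higher, against 11.3% of all genes, and 2 were lower, against 11.7%. Among genes with a mean at least that of the lowest member (302), 25.3% were called. The members were thus called no more often than genes at large.

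**Figure D1:**
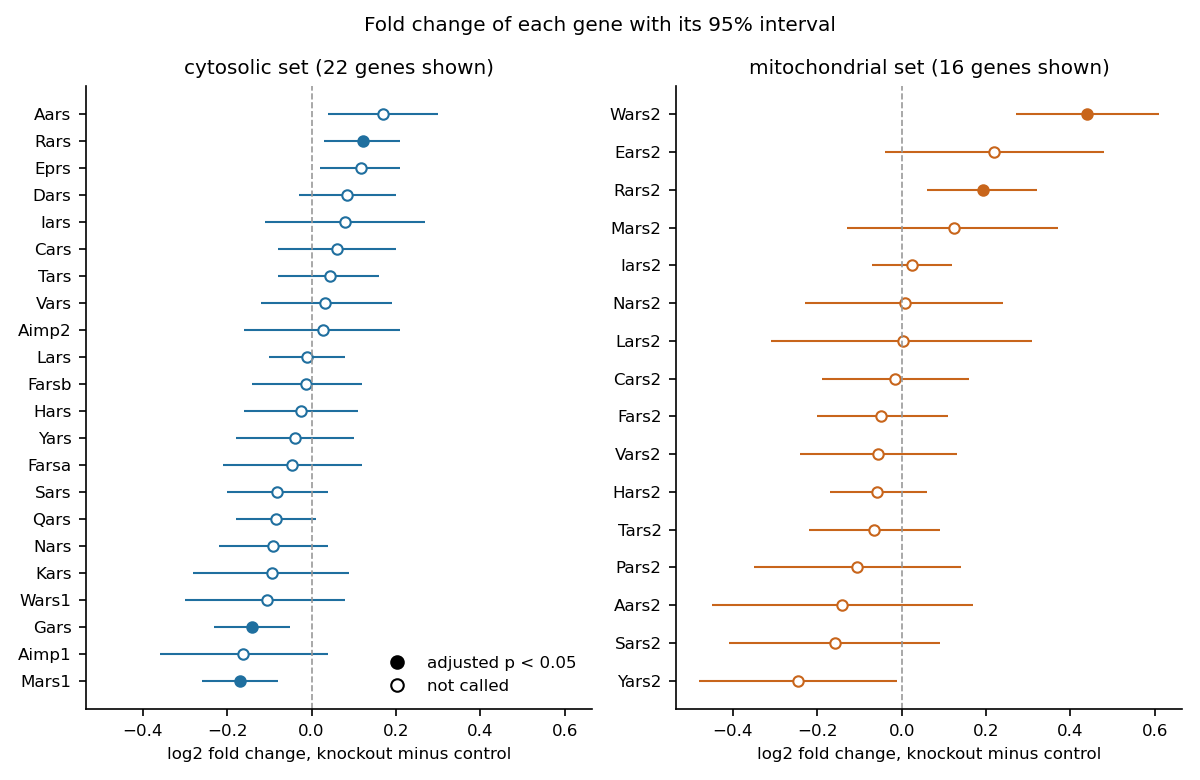
Log2 fold change, knockout minus control, of the synthetase genes reported, with the cytosolic set on the left and the mitochondrial set on the right. Points are the authors' values, bars are 95% intervals, and filled points are called genes. Wars2 stands highest at 0.44, and the mitochondrial values spread more widely than the cytosolic ones.

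The called changes were small. Wars2, the mitochondrial tryptophan enzyme, had derived means of 381 normalized counts in control and 517 in knockout, the largest fold difference of the members described. The authors' deposited table listed it at a log2 fold change of 0.44, or 1.36-fold, with an SE of 0.09 and an adjusted p = 8.73e-06. The gene lies at chromosome 3, 99141068 to 99239186 (mm10), and no other protein-coding gene overlaps it there.

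Rars2 and Rars encode the arginine enzymes of the mitochondria and of the cytosol, and arginine was the amino acid for which the genes of both compartments were called. Rars2 had derived means of 1190 and 1359 and Rars of 6190 and 6733, with the knockout second. The authors' deposited table listed Rars2 at 0.19 (SE 0.07, adjusted p = 0.0214). Rars, by the authors' deposited table, stood at 0.12 (SE 0.05, adjusted p = 0.0423), a 1.09-fold difference and the smallest of the 6 calls. Rars2 (chromosome 4, 34614957 to 34660167) starts 13 bases from Orc3, a replication origin gene at -0.01 (SE 0.05), and Rars lies at chromosome 11, 35808381 to 35834506.

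Mars1, the cytosolic methionine enzyme, which charges initiator as well as elongator transfer RNA, was lower. Its derived means were 3124 in control and 2778 in knockout, and the authors' deposited table listed it at -0.17 (SE 0.05, adjusted p = 0.00355). The gene (chromosome 10, 127296221 to 127311786) shares 68 bases at its end with Ddit3 on the other strand, the stress gene for CHOP, which was at -0.39 (SE 0.20, adjusted p = 0.150). No source used here says whether counting kept the strand, and reads from those bases may not be separated.

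Gars, the glycine enzyme of both compartments, had derived means of 4489 and 4073, the knockout again second. The authors' deposited table placed it at -0.14 (SE 0.04, adjusted p = 0.0114), a fold of 0.91. It lies at chromosome 6, 55038007 to 55079500. The calls of Mars1 and Gars rest on the scaling: centring by the summed means of the 2 groups took a shift of -0.06 out of every value, and their adjusted p-values were 0.0917 and 0.209. Under that centring 7 members were higher and 0 lower in place of 4 and 2, and among all calls the share higher was 70.9% in place of 49.1%.

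**Figure D2:**
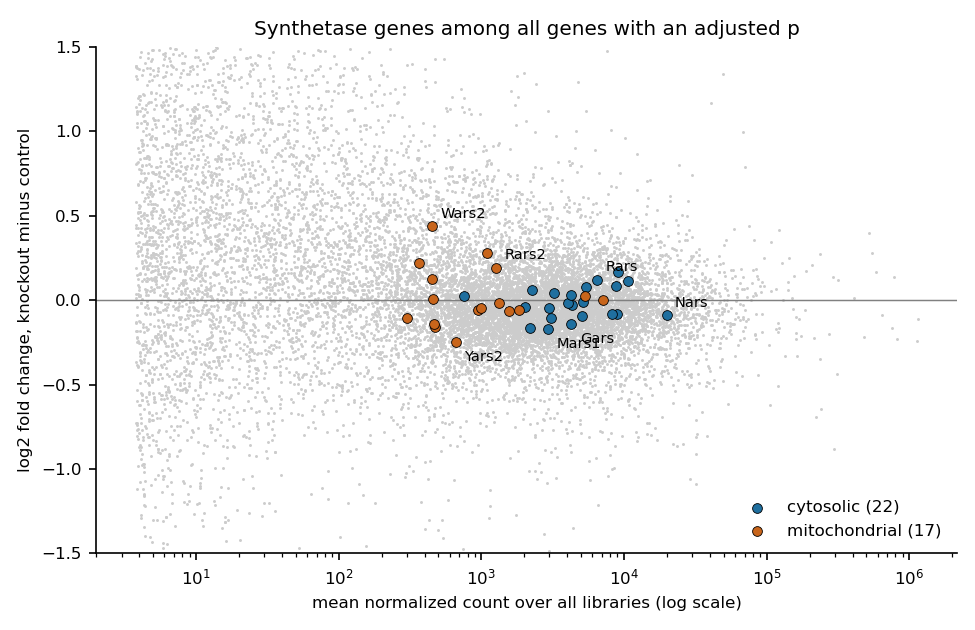
Log2 fold change, knockout minus control, against the mean normalized count (log axis) for the synthetase genes, coloured by set and in part named, among the 14619 genes with an adjusted p in grey. The 507 genes beyond 1.5 in either direction are not drawn. The members lie in the narrow middle of the cloud, with Wars2 at 0.44 highest and Yars2 at -0.25 lowest.

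The cytosolic genes stayed in a narrow band. Their log2 fold changes ran from -0.17 (Mars1) to 0.17 (Aars) in the authors' deposited table, with a median of -0.02 and a standard deviation of 0.10 across genes. Calls numbered 1 higher and 2 lower of 22, or 13.6%, against 23.0% of all genes tested. For the 19 cytosolic genes without a call, 95% intervals reached at most from -0.36 to 0.30. Each interval covers 1 gene and holds under the authors' scaling. Over all genes tested the median was -0.00 and the standard deviation 0.55, and over genes with a mean of at least 302 these were -0.04 and 0.31. Those genes are not matched to the cytosolic set in level. Their median mean was 2671 normalized counts and their median SE 0.09, against 4296 and 0.07 for the cytosolic set.

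Nars, which charges asparagine transfer RNA, was the most abundant member, with a mean of 19885 normalized counts, and the authors' deposited table listed it at -0.09 (SE 0.07, adjusted p = 0.340). Eprs, at a mean of 10750, and Aars, the alanine enzyme, at 9076, came next among genes without a call. Both missed the threshold from above 0: the authors' deposited table gave Eprs 0.12 (SE 0.05, adjusted p = 0.0613) and Aars 0.17 (SE 0.07, adjusted p = 0.0537). Aars passed when only genes with a mean of at least 50 were adjusted together (adjusted p = 0.0484), and with centring on the median of all genes (0.0479). With the summed-mean centring both passed, Aars at an adjusted p = 0.00543 and Eprs at 0.00200. The annotated end of Aars also holds the whole of Exosc6 on the same strand, an exosome gene not analysed here, and reads in those 1326 bases cannot be assigned to 1 of the 2.

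In the multisynthetase complex, 1 of 10 member genes was higher (Rars) and 1 lower (Mars1), with a median of 0.01. That is 20.0% called, against 23.0% of all genes. The remaining enzymes of the complex in the authors' deposited table were Dars (0.08), Iars (0.08), Lars (-0.01), Qars (-0.08), Kars (-0.09) and Eprs. The scaffolds were at -0.16 for Aimp1 (SE 0.10) and 0.03 for Aimp2 (SE 0.09) in the authors' deposited table. Eef1e1, the third scaffold gene, falls outside the symbols used and was called higher in the authors' deposited table, at 0.18 (SE 0.07, adjusted p = 0.0387). With the summed-mean centring the call of Mars1 was lost and 3 of the 10 were higher (Rars, Eprs and Dars) and 0 lower. That is 30.0% called, against 22.6% of all genes, and 70.9% of all calls were then higher.

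Cytosolic genes outside the complex had 0 calls higher and 1 lower (Gars) of 12, with 1 higher and 1 lower at an unadjusted p under 0.05 by DESeq2. That is 8.33% called, against 23.0% of all genes. The phenylalanine enzyme is built from 2 different subunits, and their genes lay together at -0.05 for Farsa and -0.01 for Farsb in the authors' deposited table. Vars (0.03), Tars (0.04), Cars (0.06), Hars (-0.03), Yars (-0.04) and Sars (-0.08), for valine, threonine, cysteine, histidine, tyrosine and serine, were also within 0.1 of 0 there. Wars1 encodes the tryptophan enzyme and is known to be induced by interferon gamma; the authors' deposited table listed it at -0.11 (SE 0.10, adjusted p = 0.457). All 16 interferon response genes measured beside it were below 0, with a median of -0.73 and a median SE of 0.38. Of these, 3 (Gbp2, Gbp5 and Igtp) were called lower, or 18.8%. Among all genes 23.0% were called, and 11.7% were called lower. Igtp lost its call with the summed-mean centring (adjusted p = 0.0564). Wars1 thus had the sign of that list at a much smaller size, and the relation was not tested.

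Mitochondrial genes varied more among themselves. Log2 fold changes ran from -0.25 (Yars2) to 0.44 (Wars2) in the authors' deposited table, with a median of -0.01 and a standard deviation of 0.18. Of 17 genes, 3 were called higher and 0 lower, with 1 lower (Yars2) at an unadjusted p under 0.05 by DESeq2. That is 17.6% called, against 23.0% of all genes, of which 11.3% were higher and 11.7% lower. The median SE of the mitochondrial set was 0.09 against 0.07 for the cytosolic set. Its median mean was 940 normalized counts against 4296, and the part of these differences in the wider spread was not tested. All 22 cytosolic genes were within 0.2 of 0, against 13 of 17 mitochondrial genes, 52.3% of all genes tested and 65.4% of those with a mean of at least 302. No test of the sets was made, and both medians turned positive (0.04 and 0.05) with centring on the summed group means.

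Lars2, the mitochondrial leucine enzyme, was the most abundant of this set at a mean of 7151, and the authors' deposited table listed it at 0.00 with a wide SE of 0.16 (adjusted p = 0.993). Iars2, for isoleucine, at a mean of 5337, was at 0.03 (SE 0.05, adjusted p = 0.768) there, which bounds its change between -0.07 and 0.12. Hars2, for histidine, at a mean of 1848, stood at -0.06 in the authors' deposited table (SE 0.06, adjusted p = 0.512). It shares a start region with its cytosolic partner Hars on the opposite strand, the 2 genes overlapping by 198 bases, and Hars stood at -0.03.

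Yars2, the mitochondrial tyrosine enzyme, had the lowest value of any member, with derived means of 722 in control and 608 in knockout. The authors' deposited table gave it -0.25 (SE 0.12, adjusted p = 0.123), so it was not called. The others without a call were Sars2 (-0.16), Aars2 (-0.14), Pars2 (-0.10), Tars2 (-0.06), Vars2 (-0.06), Fars2 (-0.05), Cars2 (-0.01), Nars2 (0.01), Mars2 (0.12) and Ears2 (0.22), for serine, alanine, proline, threonine, valine, phenylalanine, cysteine, asparagine, methionine and glutamate. Across these 10 and Yars2, Lars2, Iars2 and Hars2, 95% intervals ran as far as -0.48 and 0.48.

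The genes of the 2 compartments were set side by side by amino acid. As 35 of the 39 members were within 0.2 of 0, a difference in sign alone says little. Of 18 pairings, the mitochondrial gene had the higher log2 fold change in 7. The widest gap was for tryptophan, with Wars1 at -0.11 and Wars2 at 0.44 in the authors' deposited table, a difference of 0.55. Eprs was set beside both Ears2 and Pars2, and Farsa and Farsb each beside Fars2. Alanine was the reverse, with Aars at 0.17 and Aars2 at -0.14, and for methionine Mars1 stood at -0.17 and Mars2 at 0.12 in the authors' deposited table. Arginine genes were both higher, and leucine and phenylalanine genes all lay between -0.05 and 0.00. Errors of these differences need values per library and are not given.

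**Figure D3:**
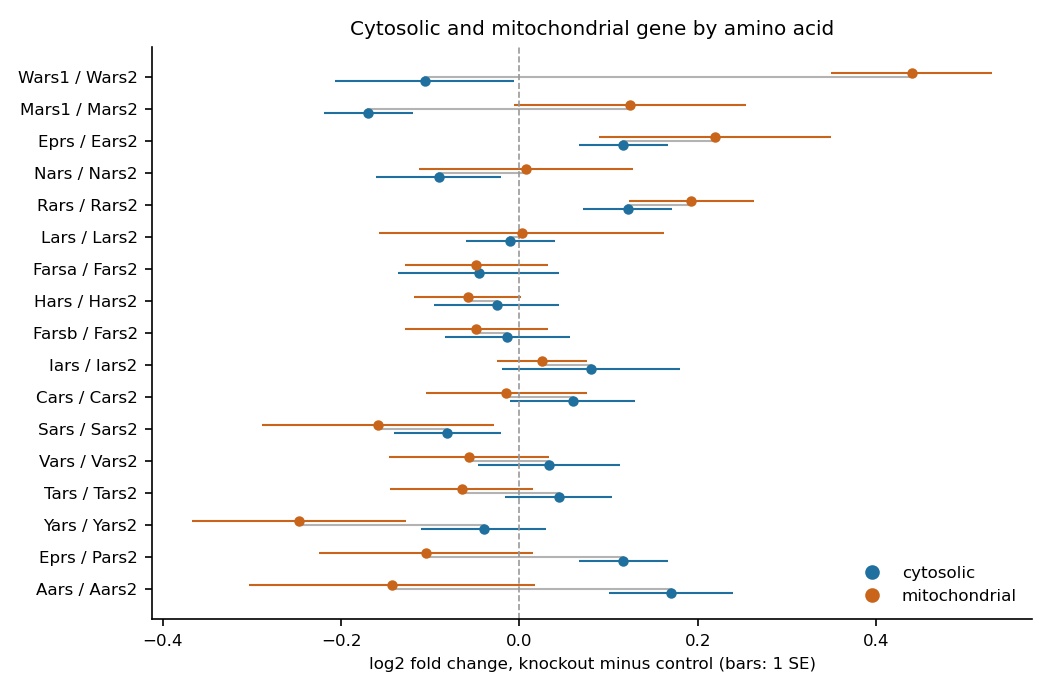
Log2 fold change, knockout minus control, of the cytosolic and the mitochondrial gene for the amino acids reported, joined by a grey line and ordered by their difference. Bars are 1 SE. The pair for tryptophan is widest at 0.55, and Eprs appears in 2 pairings because it charges glutamate and proline.

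Levels were compared per kilobase of the longest annotated coding transcript. The cytosolic genes had a median of 1720 normalized counts per kb and the mitochondrial genes of 253. Of the 22 cytosolic genes 17 exceeded 1000 per kb, while in the mitochondrial set only Lars2 did, at 1836. The cytosolic gene was the higher per kb in 17 of 18 pairings, with a median ratio of 4.66 between the levels. The exception was leucine, where Lars stood at 1305 per kb, a ratio of 0.711. Nars led all members at 7244 per kb and its partner Nars2 was at 122, a ratio of 59.4. Mars2 was lowest at 40 per kb, a value that rests on an annotated transcript of 11294 bases, and a shorter form would raise it. Wars2, with the largest fold change, was the third lowest at 102 per kb.

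**Figure D4:**
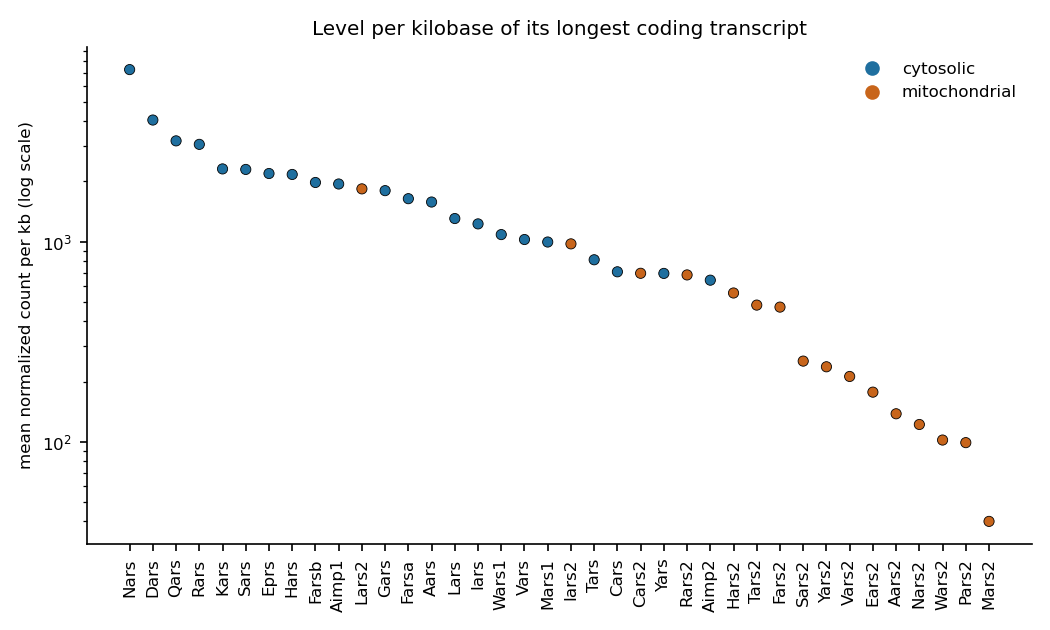
Mean normalized count over all 8 libraries per kilobase of the longest coding transcript (log axis) for the synthetase genes reported, in falling order and coloured by set. Cytosolic genes fill the upper end from 7244 (Nars), Lars2 is the highest mitochondrial gene at 1836, and the lowest is Mars2 at 40.

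Start regions were searched for a motif of the amino acid response. The core of the C/EBP-ATF response element, through which ATF4 acts, was searched as TGATGNAA on both strands from 250 bases before to 50 after each start site (RefSeq, GRCm38.p6), for the 29 members with an entry. It was found in 5 of 15 cytosolic genes and 0 of 14 mitochondrial genes, against 4.51% of all 27025 genes with an entry. The windows below show it in capitals, on the strand where it reads TGATGNAA, with 8 bases on either side. They are given so that the matches can be compared.
Aars, upstream: ggctcggcTGATGCAAtgctcaag
Aars, at the start: gagcgctcTGATGAAAagtgaccc
Gars: ccggtgcaTGATGAAAtagcgcag
Iars: tctggaggTGATGCAAtactgaca
Tars: taaccagcTGATGCAAcgggactc
Yars: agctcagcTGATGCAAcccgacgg

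The Aars windows lie at chr8:111033722-111033745 and chr8:111033843-111033866, that of Gars at chr6:55037963-55037986 and that of Iars at chr13:49682129-49682152. Those of Tars and Yars lie at chr15:11399658-11399681 and chr4:129189898-129189921. Counted from the start site at 0, the matches begin between -112 (the first of Aars) and 9 (the second), and 5 of the 6 lie on the strand opposite to the gene. The motif is a description of these letters and not a measured binding site. Fold changes of the 5 genes were mixed: in the authors' deposited table Aars was at 0.17, Iars at 0.08, Tars at 0.04, Yars at -0.04 and Gars, the only one of them called, at -0.14. With the shorter core TGATG, which every TGATGNAA match contains, 12 of 29 members matched against 42.9% of all genes.

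The amino acid response as a list gave 4 genes higher and 3 lower of 31 measured, or 22.6% called, close to the 23.0% of all genes. Its median was -0.06. Sesn2, a leucine-linked inhibitor of mTORC1 (0.90, SE 0.07, adjusted p = 6.85e-40), and Ddit4, another mTORC1 inhibitor (0.64, SE 0.12, adjusted p = 3.25e-06), were higher in the authors' deposited table. Cebpg, a dimer partner of ATF4 (-0.38, SE 0.09, adjusted p = 0.000241), and Xpot, which exports transfer RNA from the nucleus (-0.21, SE 0.06, adjusted p = 0.00203), were lower there. For Atf4 itself the authors' deposited table gave -0.24 (SE 0.12, adjusted p = 0.122), and for Eif2ak4, which encodes GCN2, 0.06 (SE 0.05, adjusted p = 0.471). The serine synthesis gene Psat1 and the proline synthesis gene Pycr1 made up the calls higher, and the cystine carrier gene Slc7a11 those lower. Pycr1 was near the floor, with a mean of 12.1 normalized counts and an SE of 0.48. At a mean of at least 50 the list had 3 genes higher and 3 lower, or 19.4% called, against 26.5% of all genes. Beside this list, 13 of 14 stromal markers were called higher, against 11.3% of all genes, and the part of these markers in the list was not tested.

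Other genes of the aminoacyl-tRNA pathway were read beside the synthetases. Of 12 partner and editing genes, Eef1e1 was higher and Gatc lower, or 16.7% called against 23.0% of all genes. With the summed-mean centring 3 were higher, Eef1e1 and Sepsecs among them, and 0 lower. That is 25.0% called, against 22.6% of all genes, and 70.9% of all calls were then higher. Gatc encodes a subunit of the amidotransferase that makes mitochondrial glutaminyl-tRNA after Ears2 has attached glutamate, since mitochondria have no glutamine enzyme of their own. It had derived means of 2010 in control and 1628 in knockout and the authors' deposited table listed it at -0.30 (SE 0.11, adjusted p = 0.0257); with centring on the summed group means the call was lost (adjusted p = 0.0907). The other subunit genes, Qrsl1 (-0.09, SE 0.11) and Gatb (0.05, SE 0.07), were not called, and Ears2 was at 0.22, so 1 of the 4 genes of this route was called. The authors' deposited table listed Sepsecs, of selenocysteine synthesis, at 0.18 (adjusted p = 0.0991) and Dtd1, which removes D-amino acids, at -0.28 (adjusted p = 0.149).

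Among 37 genes that make or modify transfer RNA, 0 were higher and 2 lower, with 3 higher and 4 lower at an unadjusted p under 0.05 by DESeq2. That is 5.41% called against 23.0% of all genes. With the summed-mean centring 4 were higher and 2 lower (16.2%, against 22.6% of all genes). The 2 called lower in the authors' deposited table were Clp1 (-0.31, SE 0.07, adjusted p = 0.000146) and Tsen34 (-0.26, SE 0.06, adjusted p = 0.000502), which act in the splicing of transfer RNA introns. Dus1l, a dihydrouridine synthase gene, stood at 0.16 (adjusted p = 0.0689) and Ftsj1, a methyltransferase gene, at -0.23 (adjusted p = 0.0797) there. None of the 6 cytosolic elongation genes was called, also at an unadjusted p under 0.05 by DESeq2. Eef2 (-0.05), Eef1g (0.06), Eef2k (0.14) and Eef1d (-0.04) had the smallest p in the authors' deposited table. Eef2 encodes the factor that moves the ribosome along, Eef2k the kinase that inhibits it, and Eef1g and Eef1d subunits of the factor that recharges eEF1A with GTP.

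Of 19 genes for mitochondrial translation factors and mitochondrial tRNA enzymes, 1 was higher and 0 lower. At an unadjusted p under 0.05 by DESeq2, 3 were higher (Mrm2, Hsd17b10 and Gfm1) and 1 lower (Trmu). Mrm2, a mitochondrial ribosomal RNA methyltransferase gene, stood at 0.27 (SE 0.11) in the authors' deposited table, just inside the threshold, and lost the call without a filter (adjusted p = 0.0542). Hsd17b10 (0.13, adjusted p = 0.0922), Gfm1 (0.12, adjusted p = 0.115) and Trmu (-0.28, adjusted p = 0.106) were next in the authors' deposited table. The share called was 5.26%, against 23.0% of all genes. With the summed-mean centring 4 of the 19 were higher and 0 lower (21.1%, against 22.6% of all genes), among them Hsd17b10 (adjusted p = 0.00871) and Gfm1 (adjusted p = 0.0116).

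**Figure D5:**
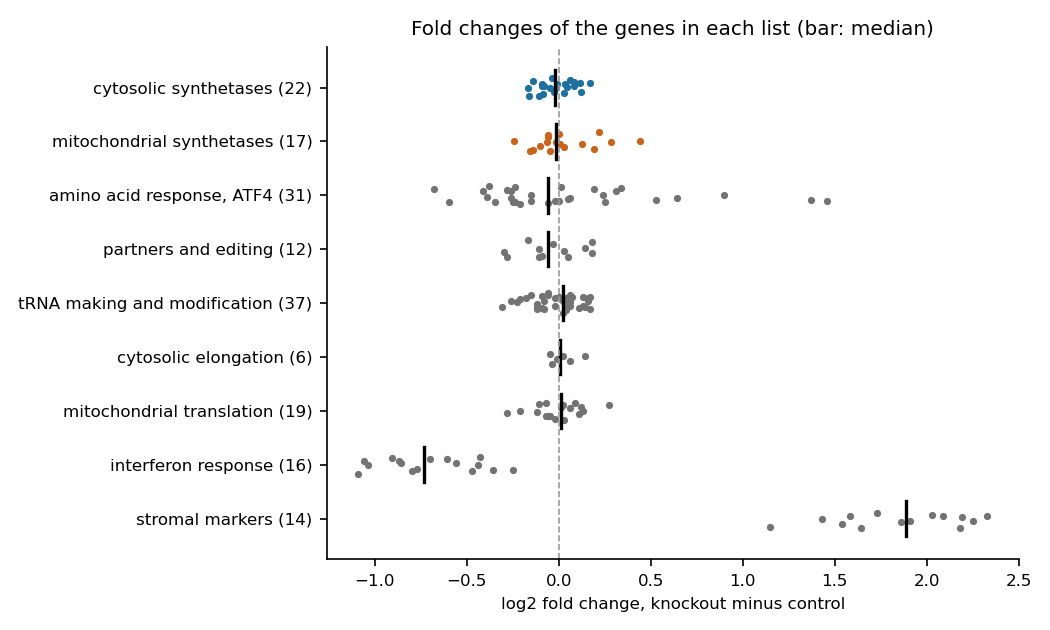
Log2 fold change, knockout minus control, of each gene in the 2 synthetase sets and in 7 other lists, with the number measured in brackets and the median as a bar. The synthetase sets, at medians of -0.02 and -0.01, are narrow beside the amino acid response list, while interferon genes lie at -0.73 and stromal markers at 1.88.

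Sites for the deleted miRNAs were looked for in the longest annotated 3' UTR of each member, since these clusters are removed in the knockout. The mature miRNAs are given with the seed, bases 2 to 8, in capitals (RefSeq, GRCm38.p6); miR-27b-3p shares the seed of miR-27a-3p.
miR-23a-3p: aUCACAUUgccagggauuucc
miR-27a-3p: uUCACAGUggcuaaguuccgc
miR-24-3p: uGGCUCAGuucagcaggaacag

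A 7-base match to at least 1 of these seeds was present in 11 of 39 members (28.2%), against 40.8% of 13263 genes. It was in 4 of 22 cytosolic and 7 of 17 mitochondrial genes, and the median 3' UTR was 251 bases long in the cytosolic and 986 in the mitochondrial set, against 1164 over all genes. Of the 11 with a match 2 were called higher and 0 lower, and of the 28 without a match 2 were higher and 2 lower. Among all genes 15.8% of those with a match and 9.61% of those without were called higher. Called lower were 548 of 5405 genes with a match and 1124 of 7858 without. Genes with and without a match were not matched for 3' UTR length or level, and the reason for the difference was not tested. The matches in Wars2, the gene with the largest fold change, were these, with the matching bases in capitals.
Wars2, miR-24: aacaattaCTGAGCCatggcgtg
Wars2, miR-27: aacgttgtACTGTGActtacaca

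The Wars2 matches lie at chr3:99217122-99217128 and chr3:99218368-99218374 on the plus strand, 215 and 1461 bases into a 3' UTR of 3296 bases. The miR-24 match is followed by an A, the form that pairs best in general. Rars2 and Rars, also higher, had no such match in 3' UTRs of 97 and 101 bases. Members with matches that were not called included Mars2, with 3 matches in 9470 bases and a log2 fold change of 0.12, and Aars, with 3 miR-24 matches, 2 of them inside Exosc6. Aars2 and Pars2, with 1 miR-24 match each, were at -0.14 and -0.10 in the authors' deposited table. A match describes these letters and does not show that the miRNA acts there.

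Shared start regions were common among the members. A protein-coding gene on the other strand began within 1000 bases of 12 of the 39 start sites (30.8%), against 15.8% of 13394 protein-coding genes tested. The share was 27.3% in the cytosolic and 35.3% in the mitochondrial set. In the authors' deposited table, 3 of these 12 members had a partner that was called, against 23.0% of all genes tested. These were Ubfd1 beside Ears2 (0.28, SE 0.06, adjusted p = 5.91e-05), Tbck beside Aimp1 (0.23, SE 0.06, adjusted p = 0.00126) and S100pbp beside Yars (-0.24, SE 0.08, adjusted p = 0.0121). The 3 members beside them were not called. These 3 partners were chosen after their values were seen. Ears2, at 0.22 (SE 0.13), and Yars, at -0.04 (SE 0.07), had the sign of their partners, and Aimp1, at -0.16, did not. Ears2 overlaps Ubfd1 by 89 bases and Aimp1 overlaps Tbck by 227, so reads there may not be separated.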

How the data were processed

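Polyadenylated RNA of 8 libraries, 4 per genotype, was sequenced. The submitters' processing notes name the build mm10 and the tools Salmon, DESeq2, cutadapt and FastQC; their versions and settings are not given in the sources used. Per the file headers, the deposited comparison holds the authors' mean normalized count (a signal over all libraries), log2 fold change with its SE, Wald score, p-value and Benjamini-Hochberg adjusted p-value. Recomputing the adjustment changed no value by more than 5.7e-09. The 8 columns of values per library match no sample label and were not used, so fits on them, and depth, were not obtained.

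Genes at an adjusted p under 0.05 are called. A mean per genotype was derived for each gene by splitting the overall mean by its fold change, the groups being of equal size. Intervals are 95% Wald intervals. GENCODE M21 (GRCm38, which mm10 denotes) gave positions and 3' UTRs, and promoters and miRNAs came from RefSeq (GRCm38.p6). The counts cover all 39 members, of which 1 is not reported here by name. Named genes were the other members and up to 4 genes per list with the smallest adjusted p, with Atf4, Eif2ak4, Psat1, Pycr1, Slc7a11, Qrsl1, Gatb and neighbours added after their values were seen. Tarsl2 was named because of its symbol, without its values. Members and lists were chosen with earlier results of these data known. Python 3.11.15 and scipy 1.17.1 were used, and the recalculation was tested on simulated data.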

Additional observations from a re-analysis of the deposited data

How the results depend on the processing

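Without a filter, at a mean of at least 50 and with centring on the median of all genes (a shift of -0.004), the count of called members was 6, 7 and 7, against 6. The shares of all genes called were 20.6%, 26.5% and 22.8%, against 23.0%. At an adjusted p under 0.01 the count of called members was 3, with 2 higher (Wars2 among them) and 1 lower (Mars1), and 14.1% of all genes were called. Centring on the summed group means gave 7 members higher and 0 lower, with 22.6% of all genes called and 70.9% of those calls higher. Leaving Lyz2 out of those sums, chosen after seeing the data, gave 6 higher and 0 lower, so the 2 calls lower depend on the scaling. Of all genes 22.2% were then called, and 67.7% of those calls were higher. The medians of the cytosolic and mitochondrial sets turned positive, at 0.04 and 0.05 on the summed means and at 0.03 and 0.04 without Lyz2, from -0.02 and -0.01. The motif search gave 5 members, and 12 with the shorter core.

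With the summed means the sign turned for these uncalled genes: Cars2 (0.05), Fars2 (0.01), Farsa (0.02), Farsb (0.05), Hars (0.04), Hars2 (0.00), Lars (0.05), Vars2 (0.01), Yars (0.02), Eef2 (0.01) and Eef1d (0.03). Without Lyz2 it turned for Cars2 (0.04), Fars2 (0.00), Farsa (0.01), Farsb (0.04), Hars (0.03), Lars (0.04), Yars (0.01), Eef2 (0.00) and Eef1d (0.02). Wars2, Rars2 and Rars stayed called higher without a filter and at a mean of at least 50. Rars2 and Rars lost the call at the stricter threshold. Wars2, Rars2 and Rars also kept their calls under each centring, which is no test of them. Every shift taken out was negative (-0.06 on the summed means, -0.05 without Lyz2 and -0.004 on the median). Each centring therefore raised all values, which favours calls higher and weakens calls lower.

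No paired analysis was possible because numbered library columns could not be matched to genotypes or to replicates. A limma fit and refits without single libraries were not run for the same reason.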
